A study of Mus musculus with 32 samples.

Results

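RNA polymerase II (Pol II) occupancy in mouse brain was compared with that in heart, kidney and liver across all genes. Brain contributed 4 of the 32 libraries of the series and 2 of the 8 columns of the table used, 1 from frozen and 1 from formalin-fixed, paraffin-embedded (FFPE) tissue. The other 6 columns were the frozen and FFPE columns of the 3 other organs. Genes were kept where the log2 value was at least 2 in both brain columns or in at least 2 of the other columns, which left 24440 of 27179 genes; the remaining 2739 were not tested.

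Organs of mice were either flash frozen or placed in 10% formalin and embedded in paraffin. Crosslinking of frozen cores took 30 min in 1% formaldehyde, whereas FFPE sections had their paraffin removed and were heated to 95 °C for 20 min, so preservation and extraction differed together in every organ. Sheared chromatin was then precipitated with an antibody to the CTD, the tail of the largest Pol II subunit, and 2 libraries were made for each organ and preservation. Strain, sex, age and the number of animals are not in the labels used here, and neither are the brain regions that were sampled. Each column is called a profile; it carries no replicate number, and no label says whether it holds 1 library or both. The p-values therefore measure the spread between these profiles; nothing says that they come from separate animals, and the spread may be technical.

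Pol II transcribes protein-coding genes and many noncoding RNAs, and the DNA recovered with it over a gene reflects polymerase at the promoter and along the gene body. Neurons keep a large set of genes for synaptic transmission, excitability and long processes that most other cells keep silent. Brain tissue also holds oligodendrocytes, which make myelin, astrocytes, microglia and blood vessels. In bulk tissue, fewer cells of a type and less polymerase per cell cannot be told apart.

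The brain profiles held 1720461 reads in genes (frozen) and 1818524 (FFPE), and the others between 864816 and 2178329. Mitochondrial genes took 7.73% of reads in both brain profiles and between 7.77% and 25.6% in the others. The setting without them in the closing section also rescaled each profile to its plain read total. Their part in the scaling was thus not tested alone. Levels are log2 values of reads per gene scaled to an adjusted library size, as the authors deposited them. This size was 1.10 (frozen) and 1.12 (FFPE) times the reads in genes in brain, and 0.86 to 1.11 times in the others. A log2 fold is the brain level minus the mean of the 3 other organs, with preservation as a term, and its error is the limma standard error (SE) of 2 brain profiles against 6 others.

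Higher Pol II levels in brain were called for 952 genes, which is 3.9% of those tested, and lower levels for 1123 genes (4.59%), together 8.49%, at a Benjamini-Hochberg adjusted p under 0.05 in limma. Folds reached at least 1 in 813 of the higher genes and -1 or less in 851 of the lower ones. Both brain profiles lay above all 6 others in 882 of the higher genes and below them in 787 of the lower genes; over all genes tested this separation was seen in 8.83% (above) and 7.4% (below). Against each organ on its own, brain was higher than heart in 760 genes (3.11%) and lower in 1071 (4.38%). For kidney these numbers were 513 (2.1%) and 531 (2.17%), and for liver 1088 (4.45%) and 1459 (5.97%). Genes higher than the mean and than each of the 3 organs numbered 285 (1.17%), and genes lower in this way 136 (0.556%). The median fold of all genes was -0.01, and that of the 1245 olfactory and vomeronasal receptor genes tested was 0.31. List medians given below that lie near 0.31 are thus near the level of these receptor genes. Scaled so that olfactory and vomeronasal receptor genes, which are silent in these organs, had the same median in every profile, the median of all genes moved by -0.18, and 415 genes were higher and 852 lower. With frozen brain left out, limma called 114 genes higher and 118 lower, and with FFPE brain left out 280 and 358; the single brain profile that remains is taken to vary as the other organs do. Leaving out FFPE kidney gave 661 and 668, FFPE heart 746 and 747, and FFPE liver 1398 and 1886. Without a trend of the variance on the level, limma called none in either direction (1910 and 2040 at an unadjusted p under 0.05). With brain or not brain as the only organ term it called 257 and 101, and with the precision weights of voom on the recovered reads 1486 and 1346. Frozen profiles alone gave 0 and 0 (671 and 564 at an unadjusted p under 0.05), and FFPE profiles alone 1 and 1.

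The gene farthest above the other organs was the noncoding host gene of microRNA 124, Mir124a-1hg (Entrez gene 268755, chromosome 14, 64588115 to 64593961). Its level was 9.22 in frozen and 8.86 in FFPE brain, against 3.22 to 4.77 with a median of 4.22 in the other profiles. The groups lay far apart, with 1129 and 945 reads in brain and at most 38 elsewhere. The fold was 5.04 ± 0.34 (limma, adjusted p = 1.77e-08). Nptx1, a secreted pentraxin that gathers glutamate receptors at synapses (chromosome 11, 119538719 to 119547820), stood at 8.36 and 7.86 in brain and at 3.85 to 5.12 elsewhere. The other markers of brain, Snap25, Neurod1 and the myelin gene Mobp, were separated from all other profiles as well. Also among the 15 leading genes were Cnksr2, a scaffold of the postsynaptic density (3.08 ± 0.39), Diras2, a small GTPase (2.89 ± 0.31), Cntn2, an axonal adhesion molecule (2.68 ± 0.24), and Dclk1, a microtubule-associated kinase (2.64 ± 0.23). Tmem210, a transmembrane protein gene, had a fold of 3.35 ± 0.58. Ackr1, the Duffy chemokine receptor, overlaps Cadm3, a neuronal adhesion gene that was higher itself, so that their reads cannot be separated.

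**Figure D1:**
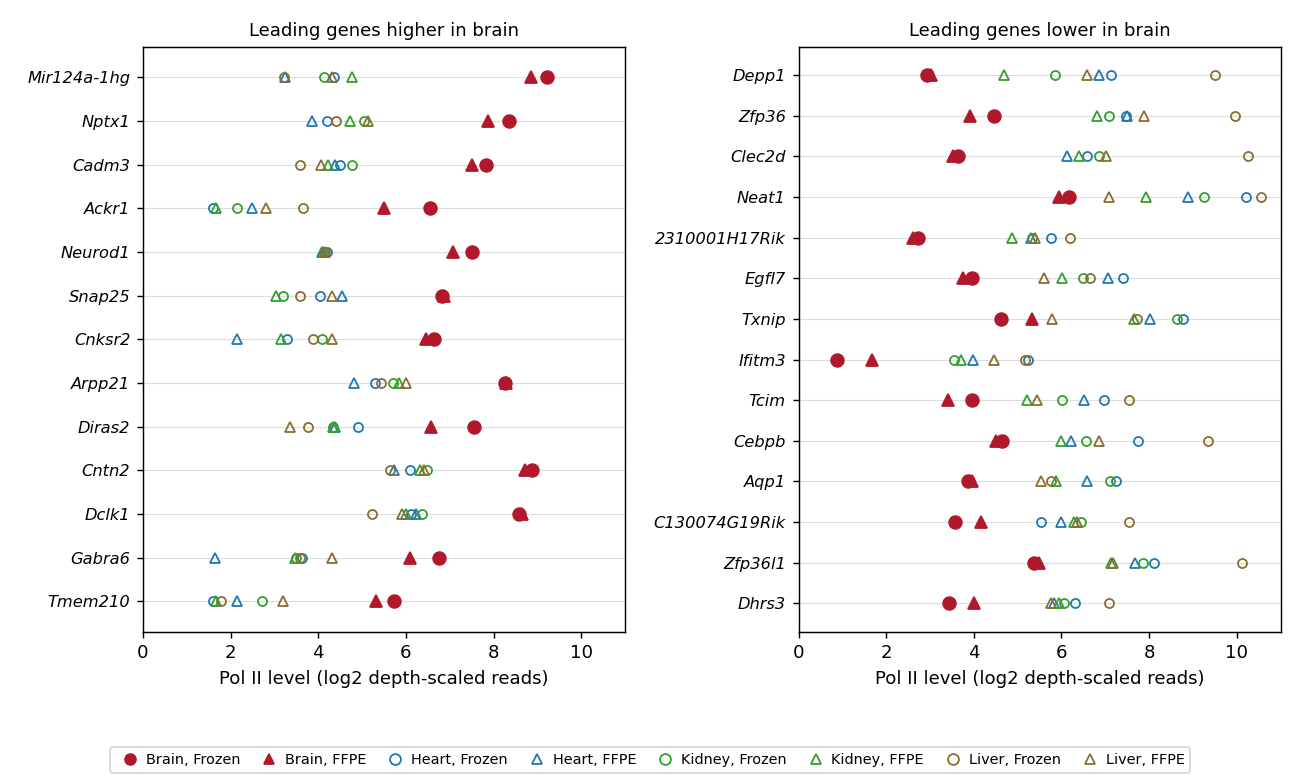
Pol II level (log2 depth-scaled reads) in the 8 profiles for 13 of the 15 leading genes higher and 14 of the 15 leading genes lower in brain, those named in the text, ordered by the 95% confidence limit nearest 0; circles are frozen and triangles FFPE profiles, filled for brain and open for the other organs. In every row both brain symbols lie beyond all 6 others, which the choice of these genes required; Mir124a-1hg stands at 9.22 and 8.86 in brain.

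Several leading genes carry microRNAs, short RNAs that repress the messages they pair with through their seed, bases 2 to 8. Of 23 long noncoding and microRNA host genes of brain that were tested, 10 were higher and 0 lower (median fold 1.54; 5 higher without either brain profile). Besides Mir124a-1hg, these were Mir9-3hg (2.79 ± 0.39), Mir124-2hg (2.52 ± 0.53), Snhg11, Miat, Snhg14, Sox2ot and the imprinted RNAs Meg3, Rian and Mirg. Mir9-3hg stood at 6.59 and 6.67 in brain against 2.79 to 4.83. Arpp21, a cAMP-regulated phosphoprotein gene that holds the microRNA 128 gene Mir128-2 in an intron, stood at 8.27 and 8.28 against 4.82 to 6.0 (fold 2.77 ± 0.24). Mir128-2 itself, at 2.93 and 2.50 against -1.94 to 0.75, did not pass (3.75 ± 1.51, limma adjusted p = 0.148). It met the filter on low values only through the brain profiles, so a higher value in brain was set by the filter. In the opposite direction, the endothelial gene Egfl7 holds the microRNA 126 gene Mir126a; Egfl7 was lower by -2.68 ± 0.25. Mir126a, with 0 reads in frozen and 1 in FFPE brain, was lower by -3.34 ± 0.94, and its reads cannot be separated from those of Egfl7. Mir126a met the filter only through other organs, so its fold is not independent of the filter. Mature sequences are shown for Mir9-3hg, Arpp21 and Egfl7, to give what these hosts carry (RefSeq, GRCm38.p6; 5′ to 3′, seed in capitals); microRNA 124 is not shown. The seeds differ between all 3.
mmu-miR-9-5p (Mir9-3, chr7:79505279-79505301): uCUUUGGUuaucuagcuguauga
mmu-miR-128-3p (Mir128-2, chr9:112118644-112118664): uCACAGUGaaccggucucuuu
mmu-miR-126a-3p (Mir126a, chr2:26591402-26591423): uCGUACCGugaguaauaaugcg

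Genes of the presynaptic terminal had the highest share of higher members of any list. The gene lists were chosen with earlier results of these data known, so counts over them are a description. Of 38 vesicle and release genes 27 were higher and 0 lower, with a median fold of 1.51 (12 and 17 higher without the frozen and the FFPE brain profile). Syt4, a synaptotagmin, stood at 7.01 and 6.52 in brain against 3.36 to 4.83 elsewhere (fold 2.80 ± 0.33). The complexins Cplx2 (2.66 ± 0.30) and Cplx1 (2.40 ± 0.45), which clamp vesicle fusion, and the synuclein Sncb (2.86 ± 0.51) were higher too. Dnm1, the dynamin that pinches off vesicles, had a fold of 1.99 ± 0.26.

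Receptors for glutamate, GABA and glycine were higher in 21 of 38 members and lower in 0 (median 1.30; 4 and 8 higher without the frozen and the FFPE brain profile), and all 38 folds were above 0. The receptor subunit Gabra6 stood at 6.77 and 6.10 in brain, and its highest value elsewhere was 4.31. The metabotropic receptor Grm4 had a fold of 2.55 ± 0.38 and the kainate receptor subunit Grik2 2.07 ± 0.34. The NMDA receptor subunit Grin1 (2.46 ± 0.31) overlaps Lrrc26 and Grin1os, both higher, so that the 3 cannot be separated. Voltage-gated channels were higher in 24 of 39 and lower in 0 (median 1.29; 9 and 14). Its higher members included the potassium channels Kcnc1 (2.61 ± 0.24), which supports fast spiking, and Kcna1 (2.39 ± 0.28) and Kcna2 (2.06 ± 0.24) of the axon, and the sodium channel subunit Scn2b (2.37 ± 0.29). Kcnc1 stood at 8.09 and 8.04 in brain against 5.03 to 5.70. Postsynaptic scaffold and plasticity genes were higher in 21 of 36 and lower in 0 (median 1.11; 2 and 7), among them the adhesion protein Nlgn3 (1.84 ± 0.41), the scaffolds Dlg2 (1.76 ± 0.26) and Dlgap3 (1.75 ± 0.31), and Arc.

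Cytoskeleton and axon transport genes were higher in 23 of 38 (median 1.42; 6 and 13 without the frozen and the FFPE brain profile) and lower in 0. Dclk1 stood at 8.59 and 8.65 against 5.23 to 6.36, the neurofilament gene Nefm at 5.64 and 5.14 against 0.90 to 3.49, and the kinesin Kif1a, which carries synaptic vesicle precursors, at 7.79 and 8.10 against 5.12 to 6.09. No profile of another organ reached the brain values of these 3 genes. Adhesion and guidance genes were likewise higher in 23 of 38 and lower in 0 (median 1.03; 5 and 8); Nfasc, which assembles nodes of Ranvier, had a fold of 2.23 ± 0.25 and the presynaptic adhesion gene Nrxn3 2.02 ± 0.24. Of G protein, cyclic nucleotide and small GTPase genes 17 of 39 were higher and 0 lower (median 0.88; 3 and 6, and 10 without the FFPE heart and 9 without the FFPE kidney profile). Rgs8, a regulator of G protein signalling, led them with 1.96 ± 0.26, followed by the adenylyl cyclase Adcy1 (1.79 ± 0.22) and the G protein subunit Gnao1 (1.58 ± 0.24). Scaled to silent receptors, the higher members of the 7 lists in this and the preceding paragraphs, in the order given, numbered 20, 12, 14, 9, 16, 13 and 4.

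**Figure D2:**
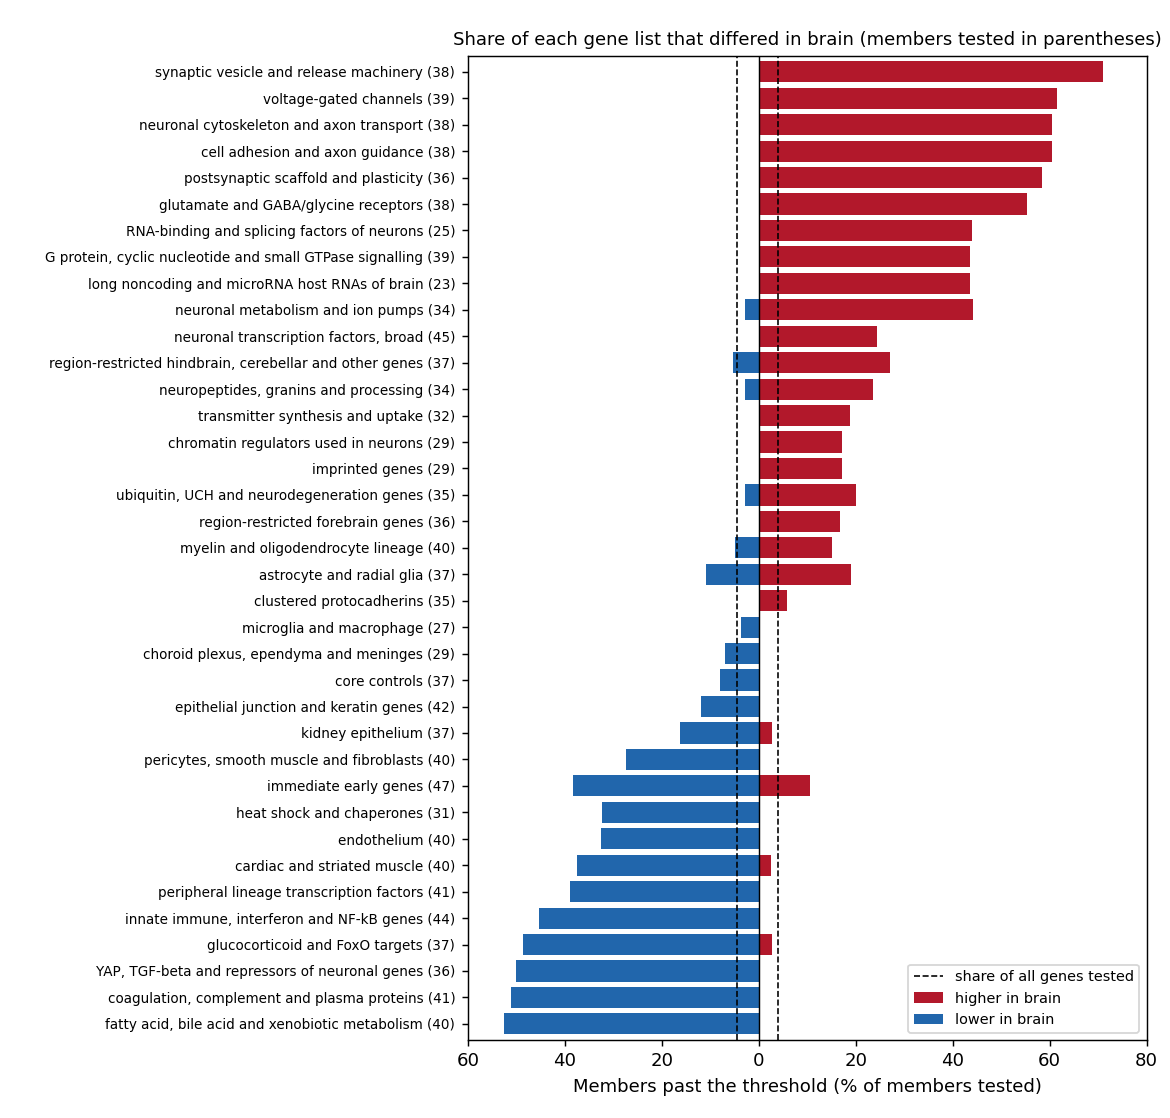
Share of the tested members of each list that was higher (right) or lower (left) in brain, with the number tested in parentheses; dashed lines are the shares of all genes tested, 3.9% and 4.59%, and a list of 5 sex-linked genes with none called is not drawn. Vesicle and release genes reach the highest share to the right, and fatty acid, bile acid and xenobiotic genes the highest share to the left.

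Many of these proteins have close relatives, and 50 pairs of a form linked to neurons and a relative were compared. Most relatives are used in many tissues, but some are themselves restricted, for example to striated muscle, liver or neurons. The pairs were chosen with earlier results of these data known, so their counts are a description. Of all genes tested, 3.9% were higher. The form linked to neurons was higher in 37 of 50 pairs, and in 35 of these the relative was not. The forms linked to neurons had a median fold of 1.57 and the relatives -0.08. The membrane fusion protein Snap25 stood at 6.83 and 6.88 in brain against 3.03 to 4.54 elsewhere (3.07 ± 0.34), and its relative Snap23 at 4.76 and 5.06 against 5.30 to 6.18 (-0.68 ± 0.28, adjusted p = 0.166 in limma). The relative was lower and the form linked to neurons higher in 2 pairs: the potassium chloride cotransporters Slc12a5 (1.61 ± 0.24) and Slc12a4 (-0.83 ± 0.25), and the G protein subunits Gng3 (1.30 ± 0.29) and Gng5 (-1.28 ± 0.35). Both forms were higher for the calcium pumps Atp2b2 (2.04 ± 0.29) and Atp2b1 (0.83 ± 0.22) and for the ankyrins Ank2 (1.80 ± 0.26) and Ank1 (1.07 ± 0.26). Of the lactate dehydrogenase pair the relative Ldha alone passed, lower by -1.30 ± 0.25. The form linked to neurons had the larger fold in 48 pairs, and the exceptions were Vamp2 with Vamp3 and Napb with Napa. Vamp2, the vesicle partner of Snap25, stood at 5.90 and 5.50 in brain and at 5.08 to 6.12 elsewhere (0.01 ± 0.26), inside the range of the other organs.

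**Figure D3:**
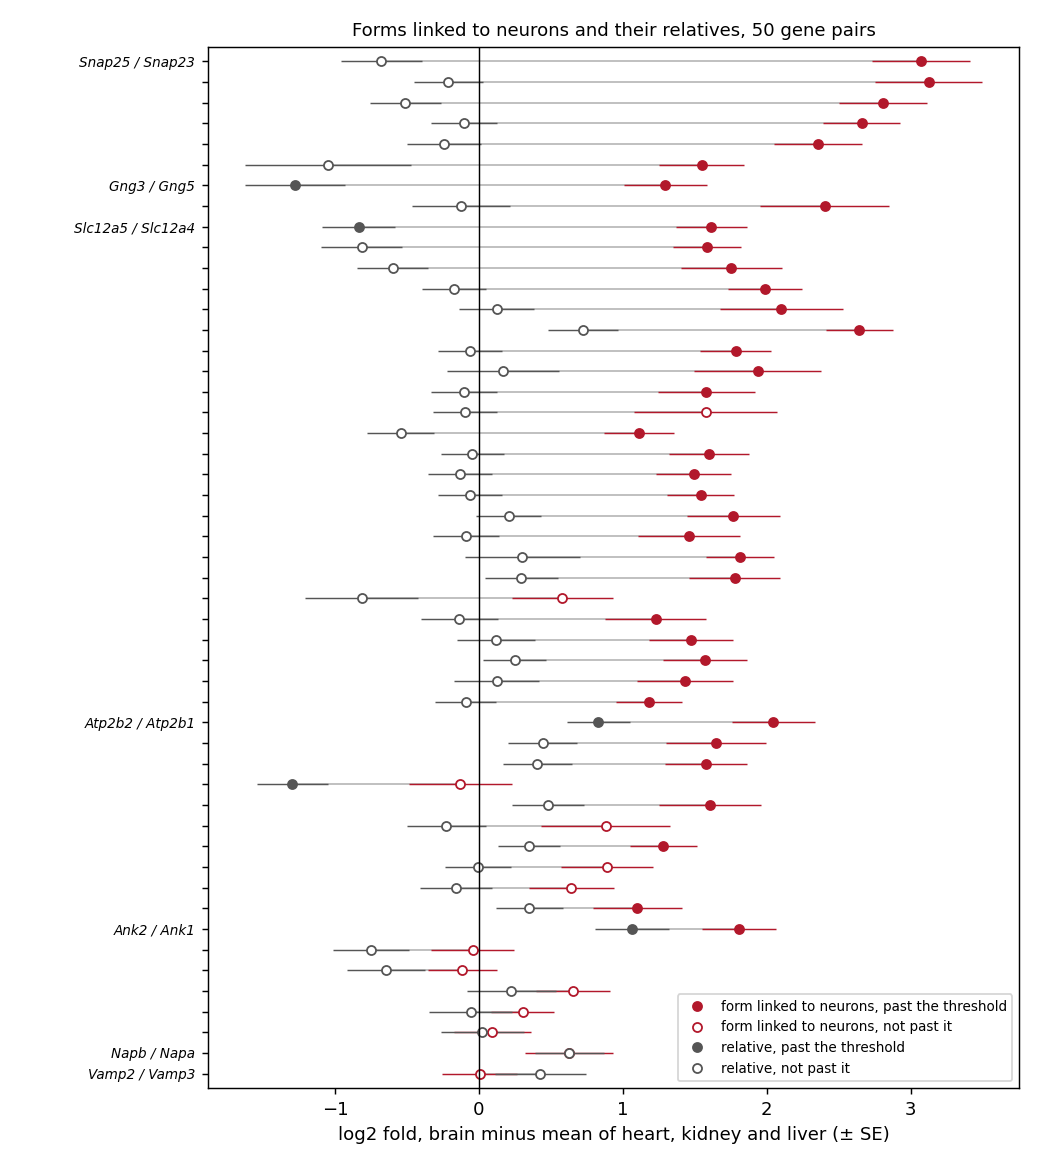
log2 folds of brain against the mean of the other organs (± SE) for 50 pairs of a form linked to neurons (red) and a relative (grey), ordered by their difference; filled points passed the threshold, and the 7 pairs with both forms named in the text are labelled. The form linked to neurons lies to the right in 48 pairs, and Snap25 with Snap23 has the largest gap. The pairs were chosen with earlier results of these data known.

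Genes of energy supply and ion pumps used by neurons were higher in 15 of 34 members and lower in 1 (median 0.73; 3 higher without the frozen brain profile, and 4 lower without the FFPE liver profile). Eno2, the neuronal enolase, had a fold of 2.36 ± 0.30, and the neuronal glucose transporter Slc2a3 1.78 ± 0.31. Among 35 genes of ubiquitin handling and neurodegeneration 7 were higher and 1 lower (median 0.33; 1 and 4 higher without the frozen and the FFPE brain profile, 11 without the FFPE liver profile, 4 when scaled to silent receptors). Uchl1, a ubiquitin hydrolase of neurons, stood at 6.08 and 4.97 against 3.19 to 4.48, and Mapt, which encodes tau, at 7.65 and 7.66 against 5.65 to 6.70. RNA-binding and splicing factors of neurons were higher in 11 of 25 and lower in 0 (median 0.99; 3 and 6 without the frozen and the FFPE brain profile, 6 when scaled to silent receptors). The ELAV family member Elavl3 led them with 2.66 ± 0.27, followed by the splicing regulators Srrm3 (2.02 ± 0.29), Rbfox1 (1.60 ± 0.30) and Rbfox3, the antigen NeuN (1.57 ± 0.29).

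Neuronal transcription factors were higher in part. Of 45 such genes 11 were higher and 0 lower (median 0.42; 4 and 6 without the frozen and the FFPE brain profile, 7 when scaled to silent receptors). Neurod1 stood at 7.51 and 7.08 in brain, and the 6 other profiles lay within 4.08 to 4.21. Scrt1, a repressor of the Snail family, had a fold of 2.08 ± 0.39 and Zbtb18, a cortical repressor, 1.96 ± 0.23. Of 29 chromatin regulators used in neurons 5 were higher and 0 lower (median 0.34): Cbx6, Chd5, Ezh1, Dpf1 and Setd7, with folds from 0.87 to 1.72. This count was 1 and 2 without the frozen and the FFPE brain profile, and 3 with FFPE heart, frozen kidney or FFPE kidney left out. It was 2 when scaled to silent receptors and 3 without preservation in the fit. The median of 0.34 lies near the 0.31 of the silent receptor genes.

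Genes linked to brain regions were called in both the hindbrain and the forebrain list, though not every member marks a single region. Of 37 genes of cerebellum, hindbrain and other regions 10 were higher and 2 lower (median 0.42; 6 higher and 0 lower without the frozen brain profile, and 0 lower without the FFPE one; 1 lower when scaled to silent receptors). Several of the higher ones mark cerebellar granule cells. Gabra6 and Neurod1 were joined by Fat2, a cadherin (2.33 ± 0.28), Cbln1, a synapse organizer (2.64 ± 0.32), and Zic1 (2.29 ± 0.25), whose reads overlap those of Zic4. Cbln1 stood at 7.43 and 6.87 in brain, against 2.56 to 5.52. Lower were Hoxb3 (-1.44 ± 0.26), a hindbrain and trunk factor, and Tcf7l2 (-0.98 ± 0.23), a Wnt effector. This lower share of 5.41% lies near the 4.59% of all genes. Of 36 forebrain genes 6 were higher and 0 lower (median 0.47; 3 without the frozen brain profile), among them Nptx1, Slc17a7, Neurod2, Pde10a and Bcl11a. Slc17a7, the vesicular glutamate transporter of cortex and cerebellum, stood at 7.14 and 6.81 against 3.30 to 5.21, and Pde10a, a phosphodiesterase of the striatum, at 7.38 and 7.63 against 4.94 to 6.20.

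For transmitter synthesis and uptake the list as a whole lay near the other organs. Of 32 genes 6 were higher and 0 lower, with a median of 0.11; scaled to silent receptors 3 were higher and the median was -0.08 (0 and 1 higher without the frozen and the FFPE brain profile, and 3 lower without the FFPE liver profile). The members called included Slc17a7, the astrocyte glutamate transporter Slc1a2, the GABA-synthesizing Gad1 (1.20 ± 0.34) and Gad2 (1.17 ± 0.30), and Maoa (1.67 ± 0.41), which degrades monoamines. Gad1 stood at 5.31 and 5.84 in brain, with 3.45 to 5.12 elsewhere. Neuropeptide and granin genes were higher in 8 of 34 and lower in 1 (median 0.83; 0 and 2 higher without the frozen and the FFPE brain profile). All 8 belong to the general machinery of dense core vesicles or to the granins: Pcsk1n (2.52 ± 0.65), Chgb (2.33 ± 0.33), Scg2 (2.15 ± 0.45), Chga (2.0 ± 0.49), Pcsk2, Scg3, Vgf and Cpe. Igf1, a growth factor made by liver, was lower by -1.19 ± 0.31. The lower share of 2.94% lies below the 4.59% of all genes.

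Of myelin and oligodendrocyte genes 6 of 40 were higher and 2 lower (median 0.33). The lower share of 5.0% lies near the 4.59% of all genes. Leaving out frozen brain gave 2 higher and 0 lower, leaving out FFPE brain 2 and 1, and 11 other settings also gave 1 lower. Mobp stood at 6.52 and 6.96 in brain against 3.93 to 5.06, and the myelin protein Mbp (1.95 ± 0.27) and the cytoskeletal gene Ermn (1.77 ± 0.38) were higher too. Gpr17, a receptor of immature oligodendrocytes, was lower by -1.76 ± 0.34, but it overlaps Lims2, which was lower as well, and the 2 genes cannot be separated. Astrocyte and radial glia genes were higher in 7 of 37 and lower in 4 (median 0.50). The counts were 0 and 2 without the frozen brain profile, 1 and 2 without the FFPE one, and 2 and 5 when scaled to silent receptors, which turns the balance; 8 were lower with FFPE liver left out. Higher were among others Mt3, a brain metallothionein (2.31 ± 0.57), and Ttyh1, a chloride channel (1.58 ± 0.27). Lower were Plpp3 (-1.90 ± 0.25), Id3 (-1.89 ± 0.27), Cst3 (-1.66 ± 0.43) and the folate enzyme Aldh1l1 (-1.11 ± 0.27). Plpp3, a lipid phosphatase also of endothelium, stood at 5.13 and 5.08 in brain against 6.55 to 7.64. Of 27 microglia and macrophage genes 0 were higher and 1 was lower in limma (3.70%, near the share of all genes), Irf8 (-1.52 ± 0.32). Of 29 choroid plexus, ependyma and meninges genes 0 were higher and 2 lower (6.90%, against 4.59% of all genes). These 2 were Ttr, which in liver reached 8.63 and otherwise overlapped brain, and the transporter Slc47a1 (-1.51 ± 0.31). Irf8 was not called without either brain profile, and of the choroid plexus list 1 member was called without the frozen brain, FFPE heart or FFPE kidney profile and 0 without the FFPE brain profile.

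Gene clusters under parental or promoter choice were mixed. The clustered protocadherins, adhesion genes that neurons choose from singly, were higher in 2 of 35 (median 0.72), which at 5.71% lies near the 3.9% of all genes: Pcdhac2 (2.25 ± 0.51) and Pcdhgc5 (1.10 ± 0.32). Without either brain profile neither was called; 1 was without the frozen heart or FFPE kidney profile or when scaled to silent receptors, and 4 were without the frozen liver profile or with voom weights. Their variable exons share downstream exons, so the members overlap. Imprinted genes were higher in 5 of 29 and lower in 0 (median 0.29; 1 and 3 without the frozen and the FFPE brain profile). Meg3 stood at 8.10 and 8.15 in brain against 5.66 to 6.17, and its neighbours Rtl1 (2.23 ± 0.37) and Rian (2.25 ± 0.37) overlap in part. Peg3, a zinc finger gene, had a fold of 1.66 ± 0.28 and Nap1l5, a nucleosome assembly gene, 1.69 ± 0.36.

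The promoters of the higher genes were searched for 9 short motifs on both strands, in RefSeq windows (GRCm38.p6) from 250 bases before to 50 after each start; 17822 of the tested genes had 1 or more windows. RE1, the site of the repressor Rest that keeps neuronal genes silent elsewhere, was searched by its consensus with at most 3 mismatches. It was present in 1.1% of the windows of higher genes, 0.178% of those of lower genes and 0.13% of all. The 11 higher genes were Amer3, Celsr3, Chrm4, Gria2, Osbp2, Rasgrf1, Rph3a, Scamp5, Sptbn4, Syn1 and Ttc9b, with folds from 0.94 (Celsr3) to 2.25 (Rph3a). Rest itself stood at 5.26 and 5.33 in brain and at 5.44 to 6.39 elsewhere, and did not pass (-0.65 ± 0.25, adjusted p = 0.121 in limma). The cyclic AMP element TGACGTCA was present in 4.01% of the windows of higher genes, 1.16% of lower and 2.29% of all. The AP-1 motif TGACTCA showed the opposite order with 3.11%, 5.78% and 4.82%, as did the FoxO motif GTAAACA with 1.9%, 3.74% and 3.03%. The heat shock motif (0.501%, 0.89% and 0.546%) and the CArG box (1.2%, 2.31% and 1.44%) were both searched without mismatches. They had this order too, but with few matches. The heat shock motif was in 5 windows of higher and 10 of lower genes, and the CArG box in 12 and 26. For both, the share in higher genes lay near that of all windows. The glucocorticoid motif, with at most 2 mismatches, had shares of 0.601%, 1.33% and 1.54%, from 6 windows of higher and 15 of lower genes. Its share in lower genes lay near that of all windows. The NeuroD E-box CAGATGG was found in 5.11%, 3.91% and 4.12%, and TATAAA in 7.41%, 12.4% and 11.9%. A match is a description of these letters and was not tested as a binding site.

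The 4 windows below, all of higher genes, show these matches in place, with RE1 and cyclic AMP matches in capitals, on the gene's strand. Syn1, a vesicle phosphoprotein (1.30 ± 0.29), carries both; Gria2, an AMPA receptor subunit (1.75 ± 0.27), and Rph3a, a vesicle effector of small GTPases (2.25 ± 0.30), carry RE1 on the opposite strand; Scg2, a granin, carries the cyclic AMP element.
Syn1 (chrX:20920869-20921168, minus strand): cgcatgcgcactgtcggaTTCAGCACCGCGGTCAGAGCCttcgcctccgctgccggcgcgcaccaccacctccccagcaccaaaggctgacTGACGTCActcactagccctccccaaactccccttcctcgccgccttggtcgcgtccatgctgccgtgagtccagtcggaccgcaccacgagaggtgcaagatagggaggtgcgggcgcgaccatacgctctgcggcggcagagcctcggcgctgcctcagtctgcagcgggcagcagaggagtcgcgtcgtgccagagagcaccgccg
Gria2 (chr3:80802786-80803085, minus strand): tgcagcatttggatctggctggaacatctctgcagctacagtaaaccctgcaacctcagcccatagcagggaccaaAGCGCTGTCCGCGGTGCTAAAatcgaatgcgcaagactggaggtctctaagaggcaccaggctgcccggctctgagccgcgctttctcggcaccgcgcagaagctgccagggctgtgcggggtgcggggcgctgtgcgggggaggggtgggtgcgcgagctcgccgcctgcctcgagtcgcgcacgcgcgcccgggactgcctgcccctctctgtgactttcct
Rph3a (chr5:121009489-121009788, minus strand): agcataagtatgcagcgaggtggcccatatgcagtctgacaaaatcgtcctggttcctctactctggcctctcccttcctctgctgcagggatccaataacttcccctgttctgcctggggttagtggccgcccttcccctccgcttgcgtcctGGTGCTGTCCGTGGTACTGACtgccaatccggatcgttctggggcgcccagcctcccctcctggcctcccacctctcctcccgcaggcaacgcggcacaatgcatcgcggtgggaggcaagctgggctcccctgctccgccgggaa
Scg2 (chr1:79439977-79440276, minus strand): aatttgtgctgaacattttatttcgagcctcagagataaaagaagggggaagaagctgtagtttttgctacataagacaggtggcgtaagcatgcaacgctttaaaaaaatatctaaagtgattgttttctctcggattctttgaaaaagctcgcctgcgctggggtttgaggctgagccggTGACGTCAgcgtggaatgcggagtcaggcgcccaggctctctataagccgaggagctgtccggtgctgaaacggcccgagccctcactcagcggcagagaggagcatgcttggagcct

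The share of higher genes was larger among long genes. Among 559 genes that span over 300 kb, 21.3% were higher and 1.07% lower in brain, whereas among 7002 genes of 1 to 10 kb 2.31% were higher and 4.98% lower. Of 1576 genes of up to 1 kb, 0.127% were higher and 0.381% lower. Their median SE was 0.85, against 0.29 for the genes over 300 kb, so few could be called in either direction. Longer genes also collect more reads, so the shares were repeated within a band of mean levels from 5 to 6.5. There 29% of the genes over 300 kb were higher, against 3.57% of those of 1 to 10 kb and 2.63% of 38 genes of up to 1 kb. The median fold of the genes over 300 kb was 0.41 in both. Whether the level accounts for these shares was not tested.

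**Figure D4:**
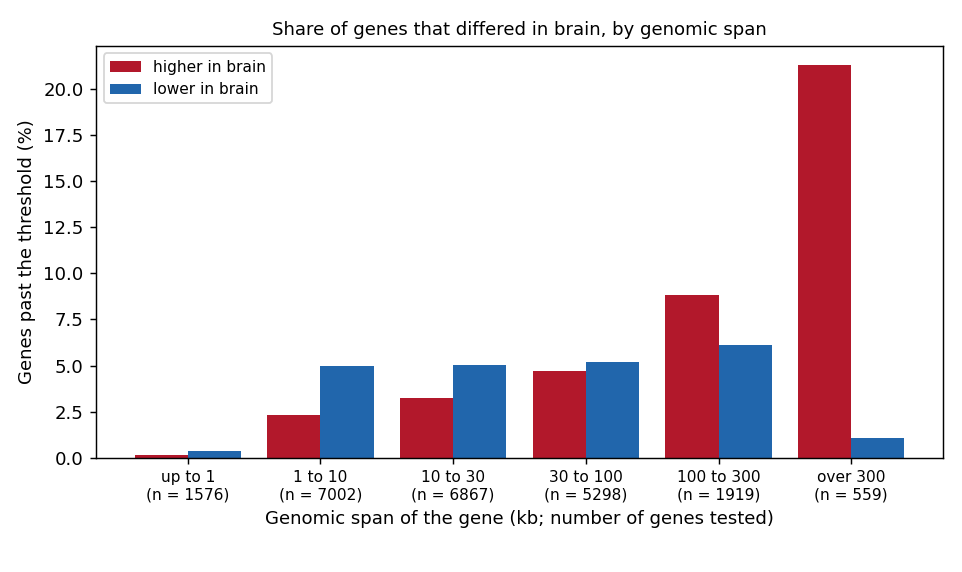
Share of tested genes that was higher (red) or lower (blue) in brain for 6 classes of genomic span in kb, with the number of genes below each. The share of higher genes climbs from 0.127% to 21.3%. That of lower genes is 0.381% in the shortest class, 4.98% to 6.1% in the classes between, and 1.07% in the longest.

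Immediate early genes, which cells switch on within minutes of a stimulus, split in brain. Of 47 tested 5 were higher and 18 lower (median -0.57; 8 and 9 lower without the frozen and the FFPE brain profile, and 2 higher without the frozen one; 11 lower when scaled to silent receptors or without preservation in the fit). By organ the median of this list was -1.04 against heart, -0.23 against kidney and -0.31 against liver. The higher genes were Npas4 and Arc, which neurons induce on synaptic activity, Egr4, the phosphatase Dusp5 (1.89 ± 0.34) and the nuclear receptor Nr4a1 (1.04 ± 0.27). Npas4 stood at 7.13 and 6.90 in brain against 3.65 to 4.94 (2.61 ± 0.32), Arc at 7.61 and 7.25 against 4.28 to 5.87 (2.43 ± 0.30), and Egr4 at 6.05 and 5.24 against 2.34 to 4.54 (2.36 ± 0.49). These did not overlap the other organs, whereas Nr4a1, at 6.81 and 6.46, lay below FFPE heart (7.24). The lower ones included the messenger decay factors Zfp36, Zfp36l1 and Zfp36l2 and the matricellular genes Ccn1 and Ccn2. Zfp36 (chromosome 7, 28376784 to 28379228) stood at 4.45 and 3.91 in brain, against 6.81 to 9.96 with a median of 7.48 (-3.60 ± 0.29). Zfp36l1 followed with -2.59 ± 0.35, Ccn2 with -2.11 ± 0.28, Ccn1 with -2.04 ± 0.27 and Zfp36l2 with -1.92 ± 0.24. Jun and Dusp1 were lower by -0.89 ± 0.25 and -0.91 ± 0.23 and overlapped other profiles. Fos (0.29 ± 0.25), Egr1 (0.53 ± 0.27) and Junb (-0.69 ± 0.27) did not pass.

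**Figure D5:**
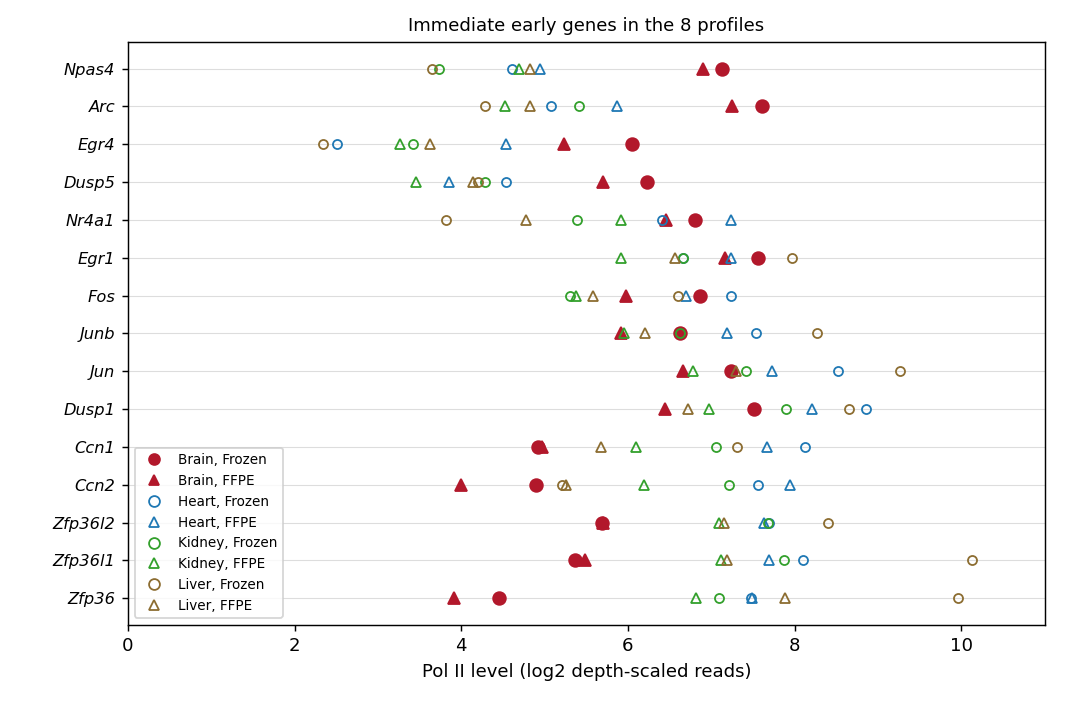
Pol II level (log2 depth-scaled reads) of 15 immediate early genes in the 8 profiles; circles are frozen and triangles FFPE, filled for brain and open for the other organs. Npas4, Arc, Egr4 and Dusp5 lie to the right of all other organs in brain, Fos, Egr1 and Junb overlap them, and Ccn1, Ccn2 and the Zfp36 family lie to the left.

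Among other inducible genes, more were called lower than higher, and many did not pass. Of 37 targets of glucocorticoids and FoxO factors 18 were lower and 1 higher (median -0.94; 7 lower without the frozen brain profile). Depp1, a FoxO target (chromosome 6, 116650684 to 116652847), stood at 2.93 and 3.02 in brain against 4.69 to 9.50 (-3.79 ± 0.37), and it overlaps Rassf4, which was lower too. Txnip, an inhibitor of thioredoxin and glucose uptake, had -2.79 ± 0.31, the factor Cebpb -2.53 ± 0.31 and Angptl4, a lipase inhibitor, -2.49 ± 0.35. Pck1, the gluconeogenic enzyme, was lower by -3.72 ± 0.35 on average but not against heart, where the difference was -0.30. The higher member was Pik3ip1, an inhibitor of PI3 kinase (0.86 ± 0.27), which overlapped other organs and was no longer called without any one of the brain, heart or kidney profiles. This higher share of 2.70% lies below the 3.9% of all genes. Of 31 heat shock and chaperone genes 10 were lower and 0 higher (median -0.65; 2 and 6 without the frozen and the FFPE brain profile, and 17 with FFPE liver left out). This count was 5 without the frozen heart or the FFPE kidney profile, 6 without the FFPE heart profile, 3 without preservation in the fit and 17 with voom weights. The median fold of the heat shock list was -1.03 in frozen and -0.28 in FFPE tissue. By organ it was -0.87 against heart, -0.19 against kidney and -0.77 against liver. Bag3, a cochaperone, stood at 5.13 and 4.13 against 5.60 to 8.35 (-2.26 ± 0.24), and Hspa1a, the inducible Hsp70, at 6.54 and 5.59 against 6.63 to 9.21 (-1.85 ± 0.23). The nuclear noncoding RNA Neat1, which builds paraspeckles and is in none of the lists, stood at 6.18 and 5.95 in brain against 7.10 to 10.56 (-2.92 ± 0.35).

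Innate immune, interferon and NF-kB genes were lower in 20 of 44 members and higher in 0 (median -0.84; 4 and 8 lower without the frozen and the FFPE brain profile). The lectin gene Clec2d stood at 3.63 and 3.53 in brain and at 6.12 to 10.25 elsewhere (-3.62 ± 0.38). Ifitm3, a gene outside the list that restricts viral entry, stood at 0.88 and 1.68 against 3.55 to 5.24 (-3.07 ± 0.48). No other profile came as low as brain for either gene. The class I histocompatibility gene H2-K1 (-1.77 ± 0.28), its partner B2m (-1.59 ± 0.33) and the tumour necrosis factor receptor Tnfrsf1a (-1.94 ± 0.27) were lower as well.

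Genes of vessels and connective tissue were lower in part. Of 40 endothelial genes 13 were lower and 0 higher (median -0.79; 4 and 6 without the frozen and the FFPE brain profile, and 21 without the frozen liver profile). Egfl7 stood at 3.96 and 3.76 against 5.61 to 7.41, Aqp1, a water channel of many endothelia outside the brain, had -2.44 ± 0.27, Eng, a coreceptor of TGF-beta, -1.89 ± 0.23, and Kdr, the main VEGF receptor, -1.72 ± 0.23. Eng overlaps Fpgs, which was lower too. Of 40 genes of pericytes, smooth muscle and fibroblasts 11 were lower and 0 higher (median -0.62; 0 and 1 without the frozen and the FFPE brain profile, 7 when scaled to silent receptors); the matrix protein Mgp had -2.16 ± 0.61 and the factor Tcf21 -1.85 ± 0.45. Against liver alone the median of this list was 0.01, against heart -1.07 and against kidney -0.55. Of 36 genes of YAP and TGF-beta signalling and of repressors of neuronal genes 18 were lower and 0 higher (median -0.79; 5 and 7). Tgfb1 itself stood at 4.42 and 3.19 in brain against 5.12 to 5.84 (-1.79 ± 0.33).

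Lists that belong to 1 of the other organs were lower mainly against that organ. Coagulation, complement and plasma proteins were lower in 21 of 41 (median -1.13), with medians of 0.03 against heart, -0.31 against kidney and -2.89 against liver. Alb, serum albumin, stood at 3.96 in both brain profiles and at up to 11.41 elsewhere, with a difference of 0.08 from heart and -6.10 from liver. This count fell to 0 without the frozen brain profile, 10 without the FFPE one, 5 without the FFPE heart, 12 without the frozen kidney, 7 without the FFPE kidney and 12 without the frozen liver profile, and it was 6 without preservation in the fit and 13 with no filter on low values. Fatty acid, bile acid and xenobiotic genes were lower in 21 of 40 (median -1.03; 3 and 13 without the frozen and the FFPE brain profile), with medians of -0.67, -0.74 and -1.76 against heart, kidney and liver. Ppara, the receptor that drives fatty acid oxidation, was lower than all 6 other profiles, at 5.62 and 5.31 against 6.84 to 8.81 (-2.04 ± 0.23).

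Cardiac and striated muscle genes were lower in 15 of 40 and higher in 1 (median -1.02; 3 and 7 lower without the frozen and the FFPE brain profile and 9 without the frozen heart profile). Their median was -2.82 against heart, 0.00 against kidney and 0.15 against liver. The troponin Tnnt2 stood at 3.75 and 3.65 in brain, near the 3.71 of the lowest other profile. The higher member was Acta1, skeletal actin (1.65 ± 0.51), at 6.0 and 5.22 in brain, 7.05 in the highest heart profile and 1.79 in the lowest of the others. Acta1 was not called without either brain profile, the FFPE heart or either kidney profile. The higher share of 2.5% lies below the 3.9% of all genes. Kidney genes were lower in 6 of 37 and higher in 1 (median -0.33; 0 and 1 lower without the frozen and the FFPE brain profile, 3 without the FFPE heart and 10 without the frozen liver profile), and their median against kidney was -1.10. The higher one was the urate transporter Slc22a12 (1.25 ± 0.33), at 6.36 and 5.64 in brain, above heart and liver by 2.03 and 2.08 and below kidney by -0.36. Slc22a12 was not called without either brain profile, the frozen heart or the FFPE kidney profile. For kidney genes the higher share of 2.70% also lies below that of all genes. Epithelial junction and keratin genes were lower in 5 of 42 and higher in 0 (median -0.50; 0 and 3 lower without the frozen and the FFPE brain profile, 3 without the frozen kidney and 9 without the FFPE liver profile), Cldn3 by -2.14 ± 0.48. Lineage factors of peripheral organs were lower in 16 of 41 and higher in 0 (median -0.81; 2 and 7), among them Hnf4a of liver and kidney (-2.22 ± 0.30), Cebpa (-1.90 ± 0.33) and Gata6 (-1.84 ± 0.28). Hnf4a in brain, at 4.68 and 4.46, was as low as in heart, where the difference was 0.07.

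Core controls, genes that every cell uses, were lower in 3 of 37 (8.11%, against 4.59% of all genes) and higher in 0 (median -0.18). The lower ones were B2m, the respiratory subunit Uqcrc1 (-0.94 ± 0.26) and Actb, beta-actin (-0.85 ± 0.26). None of the 3 was called without either brain profile, 1 was without the frozen heart or the FFPE kidney profile or when scaled to silent receptors, and 5 members were lower without the FFPE liver profile. Actb stood at 6.99 and 7.0 in brain and at 7.01 to 8.82 elsewhere.

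The brain differences were compared between frozen and FFPE tissue. All 952 higher genes had a positive fold and all 1123 lower genes a negative one in both, with median folds of 1.52 in frozen and 1.33 in FFPE for the higher genes and -1.32 and -1.14 for the lower. These genes were chosen on the mean of both, so the counts are a description. For the difference itself limma called 0 genes, each with an adjusted p of 1, while 334 (1.37%) were under 0.05 before adjustment; with quantile normalization 0 were called and 458 had an unadjusted p under 0.05. Brain has 1 difference here against 3, with 2 residual degrees of freedom. The 10 genes with the smallest p included Txnip, at 4.62 in frozen and 5.33 in FFPE brain, Gpr17, at 4.14 and 5.54, and Lcat, an enzyme of plasma lipoproteins, at 2.32 and 4.46. Taar1, a trace amine receptor, had 23 reads in frozen and 0 in FFPE brain. Neurl3, a ubiquitin ligase, was also among them.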

How the data were processed

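Pol II chromatin immunoprecipitation from 4 mouse organs, frozen and FFPE, was used; input libraries were not analysed here. Per the submitters' processing notes, Bowtie2, featureCounts, limma and the mm10 build were used; the versions, the annotation and the strand setting were not found in the labels. The authors deposited log2 values that have the form of voom output, in which 0.5 reads are added per gene before scaling to an adjusted library size. When the minimum of each column was read as 0 reads, 100% of values came out whole (relative tolerance 1e-06), and the totals and reads printed are these recovered ones. The added 0.5 reads pull levels of genes with few reads toward the value at 0 reads. This value was -1.92 in frozen and -2.02 in FFPE brain, and -1.94 to -0.67 in the other profiles. Folds of such genes can thus be understated or shifted downward.

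limma 3.58.1 in R 4.3.3 was fitted to all 24440 genes with organ and preservation as terms (empirical Bayes with a trend, 3 residual degrees of freedom, prior 19.1) and tested on simulated data. The difference between preservations used FFPE minus frozen values per organ (2 residual degrees of freedom, prior 23.0). p-values were adjusted over all genes. Alternatives changed the filter, scaling, terms and profiles used. Members, 38 gene lists and 50 pairs were chosen with earlier results of these data known. Named genes are the markers, the 15 called genes in each direction with the 95% confidence limit farthest from 0 among those where both brain profiles lie beyond all 6 others, up to 5 called members with the largest fold and 3 uncalled members with the highest level per list, all pairs, and the 10 genes with the smallest p for the preservation difference. Outside this rule, genes printed for a sequence or motif, for an overlap, as the full set of called members of a list, as immediate early examples, or beside another gene (Mir128-2, Mir126a, Rest, Malat1, Fos, Junb, Jun, Dusp1, Zfp36l2) were chosen after their values were seen. Symbols are the table's; 1275 rows have none, and 25275 Entrez numbers (93.0%) matched the RefSeq table of GRCm38.p6, the build named mm10, which gave positions and sequences. Some genes that the rule names are not reported here, while counts over lists and pairs include all members. Figures were drawn with matplotlib.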

Additional observations from a re-analysis of the deposited data

Results flagged for a closer look

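For Neurl3 the frozen brain profile (5.11) lay above all 3 other frozen profiles, of which the highest stood at 5.05, whereas the FFPE brain profile (3.47) lay below all 3 other FFPE profiles, which began at 5.04. Its brain fold was lower in FFPE than in frozen tissue, with a difference of -2.52 ± 0.76 on the log2 scale (limma, unadjusted p = 0.00262, adjusted p = 1). The gene was picked out because the brain profile was at opposite ends of the organs in frozen and FFPE tissue, with 1 brain profile each, and the adjusted test of the difference did not pass.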

How the results depend on the processing

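The counts of higher and lower genes were 952 and 1123. They became 257 and 101 with brain or not brain as the only organ term, 415 and 852 when scaled to silent receptors, 0 and 0 in limma without a trend (smallest adjusted p = 0.0908), 0 and 0 from frozen profiles alone, 1 and 1 from FFPE profiles alone, and 1486 and 1346 with voom weights, a setting chosen after the data were seen. The cause of these changes was not tested, except that single preservations leave 1 brain profile and fewer samples. Leaving out each profile in turn gave 114 to 1398 higher and 118 to 1886 lower genes. All other settings stayed within 1.5 times: the filters on low values, no preservation term, quantile or median scaling, mitochondrial genes left out, and added reads in proportion to depth, also chosen after the data were seen. With mitochondrial genes left out and profiles rescaled to plain read totals, 1076 genes were higher and 897 lower. Both changes were made at once, so neither was tested alone. Median scaling gave 1004 and 893. For the difference between preservations 0 genes were called under both alternatives. Of the 175 called genes the text names, none changed direction under any setting run. They lost the call in 175 cases without a trend or from frozen profiles alone, 173 from FFPE profiles alone, 79 with brain or not brain as the only organ term, 33 when scaled to silent receptors, 94 without the frozen and 64 without the FFPE brain profile, and in 0 to 26 without one of the other profiles.

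Of the genes not called, direction turned as follows. Vamp2 became -0.18 when scaled to silent receptors, -0.0745 in frozen profiles alone and -0.0276 with voom weights, and ranged from -0.10 to 0.11 when 1 profile was left out. Malat1 became 0.71 with quantile normalization and 0.32 in FFPE profiles alone, and ranged from -0.65 to 0.32 when 1 profile was left out. Under the same omissions Neurl3 ranged from -1.81 to 0.71 and Taar1 from -4.79 to 0.63; the positive ends are also their values in frozen profiles alone.

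No paired analysis was possible because the columns carry no replicate number. Count tests with edgeR and DESeq2 on recovered whole reads were planned. Whole reads were recovered, but these tests were not run; limma with voom weights on those reads (1486 and 1346 genes) was run in their place. Depth limits short and weakly occupied genes: the median over genes was 16 to 39 reads in a profile, and FFPE heart and liver were the shallowest profiles.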

Other observations

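Among the 15 leading genes lower in brain, 6 were in none of the gene lists: Neat1, Ifitm3 and 4 that the text has not described. The noncoding gene 2310001H17Rik stood at 2.72 and 2.62 in brain against 4.88 to 6.21 elsewhere (-2.81 ± 0.31), and C130074G19Rik at 3.57 and 4.17 against 5.54 to 7.54 (-2.49 ± 0.30). Tcim, a regulator of Wnt signalling, stood at 3.96 and 3.40 against 5.22 to 7.53 (-2.60 ± 0.30), and Dhrs3, a retinal reductase, at 3.43 and 4.00 against 5.76 to 7.08 (-2.45 ± 0.30). Neither brain profile of any of the 4 reached the other organs, which the choice of the 15 leading genes required.

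The neighbouring nuclear RNA genes Neat1 and Malat1 differed. Malat1, chosen for its place beside Neat1 after its values were seen, stood at 9.92 and 9.55 in brain and at 8.21 to 10.72 elsewhere, inside the range of the other organs (-0.16 ± 0.31, limma adjusted p = 0.854). The difference between both genes was not tested.

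Of 1245 olfactory and vomeronasal receptor genes tested, 0 were higher and 1 was lower in brain in limma, with a median fold of 0.31. Mitochondrial genes, read levels of which are not Pol II occupancy, were called in 1 of 15. Overlap with another gene called in the same direction was found for 78 of the higher and 68 of the lower genes, whose reads cannot be separated, since no source names the strand used for counting.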
